A study of Mus musculus with 9 samples.

Results

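The genes of cholesterol efflux and intracellular cholesterol handling were followed in mouse primary macrophages under 3 oxygen conditions. The 10 genes were taken by symbol (Abca1, Abcg1, Nr1h3, Nr1h2, Apoe, Mylip, Npc1, Npc2, Lipa and Soat1), whatever their values, and each matched 1 of the 34866 Ensembl genes in the deposited tables. RNA was sequenced from 9 samples, 3 in each of 3 groups, and every group was cultured in alpha-MEM to which serum and L929-conditioned medium had been added. Standard oxygen for 7 days defined the first group. For acute hypoxia, standard oxygen was followed by 3 hours at 1% oxygen, and for chronic hypoxia the whole 7 days were at 1% oxygen. No strain, genotype, sex or age is given for the donor mice. Levels are in TPM, a length-corrected share of all transcripts in a library, so that levels of different genes can be compared.

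A macrophage that takes up dying cells or lipoproteins must dispose of their cholesterol. In the lysosome, the lipase encoded by Lipa splits cholesteryl esters, and the proteins of Npc2 and Npc1 pass the freed cholesterol out. At the endoplasmic reticulum, the enzyme of Soat1 turns surplus cholesterol back into esters for storage in droplets. The transporters ABCA1 and ABCG1 export cholesterol to apolipoprotein A-I and to high-density lipoprotein. The nuclear receptors LXR-alpha (Nr1h3) and LXR-beta (Nr1h2), paired with RXR, sense oxysterols and switch on Abca1, Abcg1, Apoe and Mylip. Apoe encodes a secreted lipid acceptor, and Mylip encodes a ubiquitin ligase that removes the LDL receptor.

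Abca1 had the largest log2 fold change of the 10 genes after 3 hours of hypoxia, and the 250 bases upstream of its start are shown because they hold a known LXR element. Those of Mylip, another LXR target, and of Soat1 are shown beside it for comparison. The sequences are from RefSeq (GRCm38.p6), 5′ to 3′ on the strand of the gene: Abca1 at chr4:53159896-53160145 (minus strand), Mylip at chr13:45389492-45389741 (plus strand) and Soat1 at chr1:156474329-156474578 (minus strand). Capitals mark matches to the LXR motif or to a HIF core (ACGTG or GCGTG), on either strand.
Abca1: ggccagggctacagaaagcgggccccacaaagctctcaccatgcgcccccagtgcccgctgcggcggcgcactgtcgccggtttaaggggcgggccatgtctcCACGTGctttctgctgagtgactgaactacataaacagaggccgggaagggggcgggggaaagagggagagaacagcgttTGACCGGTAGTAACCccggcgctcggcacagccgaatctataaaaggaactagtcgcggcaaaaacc
Mylip: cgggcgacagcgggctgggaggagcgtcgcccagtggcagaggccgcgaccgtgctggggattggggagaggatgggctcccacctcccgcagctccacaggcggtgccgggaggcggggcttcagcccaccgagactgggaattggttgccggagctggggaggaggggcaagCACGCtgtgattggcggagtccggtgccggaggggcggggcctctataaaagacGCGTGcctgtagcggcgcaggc
Soat1: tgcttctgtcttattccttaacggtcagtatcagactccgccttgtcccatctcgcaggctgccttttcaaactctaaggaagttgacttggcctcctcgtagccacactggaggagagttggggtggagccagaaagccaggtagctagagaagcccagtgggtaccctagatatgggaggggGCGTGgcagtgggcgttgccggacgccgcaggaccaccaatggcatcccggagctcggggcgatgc

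The LXR motif searched was GGTNA followed, after a gap of 5 bases, by GGTCA. It was loosened to this form after the Abca1 sequence had been read. In Abca1 it matched on the strand opposite the gene, so that the printed sequence holds its reverse complement, 67 to 53 bases before the start. It occurred in 0.177% of 32851 promoter windows of this length, and the strict motif, AGGTCA repeated after a gap of 4 bases, in 0.015% of them. The strict motif had no match in the windows of the 8 genes with an entry in the promoter table. The E-box CACGTG of Abca1, 147 to 142 bases before the start, contains ACGTG on both strands, so these matches overlap. ACGTG was found in 16.6% and GCGTG in 28.2% of the windows. Mylip held GCGTG at 22 to 18 bases before its start and, on the strand opposite the gene, at 76 to 72 bases. Soat1 held it at 66 to 62 bases before its start, and Npc2 at 83 to 79 bases before its own. The LXR motif had no match in the windows of the other 7 genes, of which Apoe has 3 and Nr1h3 has 2.

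Of the libraries, the 3 whose descriptions share 1 digit code, 1 in each group, stood apart from the other 6 on the first principal component, which held 36.9% of the variance over 11065 genes. The digits that descriptions share across groups are called sample codes X, Y and Z here; what they stand for is not stated, and Z is the code that stood apart. Within a group, the code Z library had the lowest Abca1, Mylip, Npc1, Npc2 and Lipa and the highest Abcg1, Nr1h3 and Soat1 in each of the 3 groups. Chronic Lipa in code Z, for example, was 0.537 times the mean of codes X and Y, and chronic Abcg1 was 2.02 times it. Results are therefore given from an unblocked fit and, where the call differs, from a fit blocked by sample code, which compares libraries of the same code. Where the call differs they are also given from the 6 libraries of codes X and Y. Each comparison in codes X and Y alone rests on only the X and the Y library of each group. Code Z was set aside after it stood apart in these same data. Blocking by title number pairs partly different libraries. The acute and chronic groups were both set against the same standard oxygen libraries. Nothing in the labels says what separated the replicates, so p-values measure the spread between these samples, which may be technical. The 7 macrophage markers summed to between 55364 and 73266 TPM in all libraries, whereas the fibroblast and dendritic cell lists each summed to less than 1 TPM, with Cd209a listed at 0. Lyz2 alone made up 52793 to 70403 TPM of the macrophage sums. Among the others, Csf1r was 579 to 778 TPM in chronic hypoxia against 439 to 513 in the other groups. Itgam was 729 to 807 TPM in chronic hypoxia against 481 to 625 in the other groups. Fcgr1 was 63.2 TPM in standard code Z against 28.4 to 43.8 in the other 8 libraries. Cd68 was 964 to 1529 TPM, with overlapping groups. Mrc1 was 27.2 and 39.0 TPM in chronic codes X and Y and at most 2.78 TPM in the other 7 libraries, and Adgre1 was 253 TPM in chronic code Z against 474 to 581 in the other 8. The part of these differences in the results was not tested. Neutrophil markers summed to 1.76 to 4.76 TPM.

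**Figure D1:**
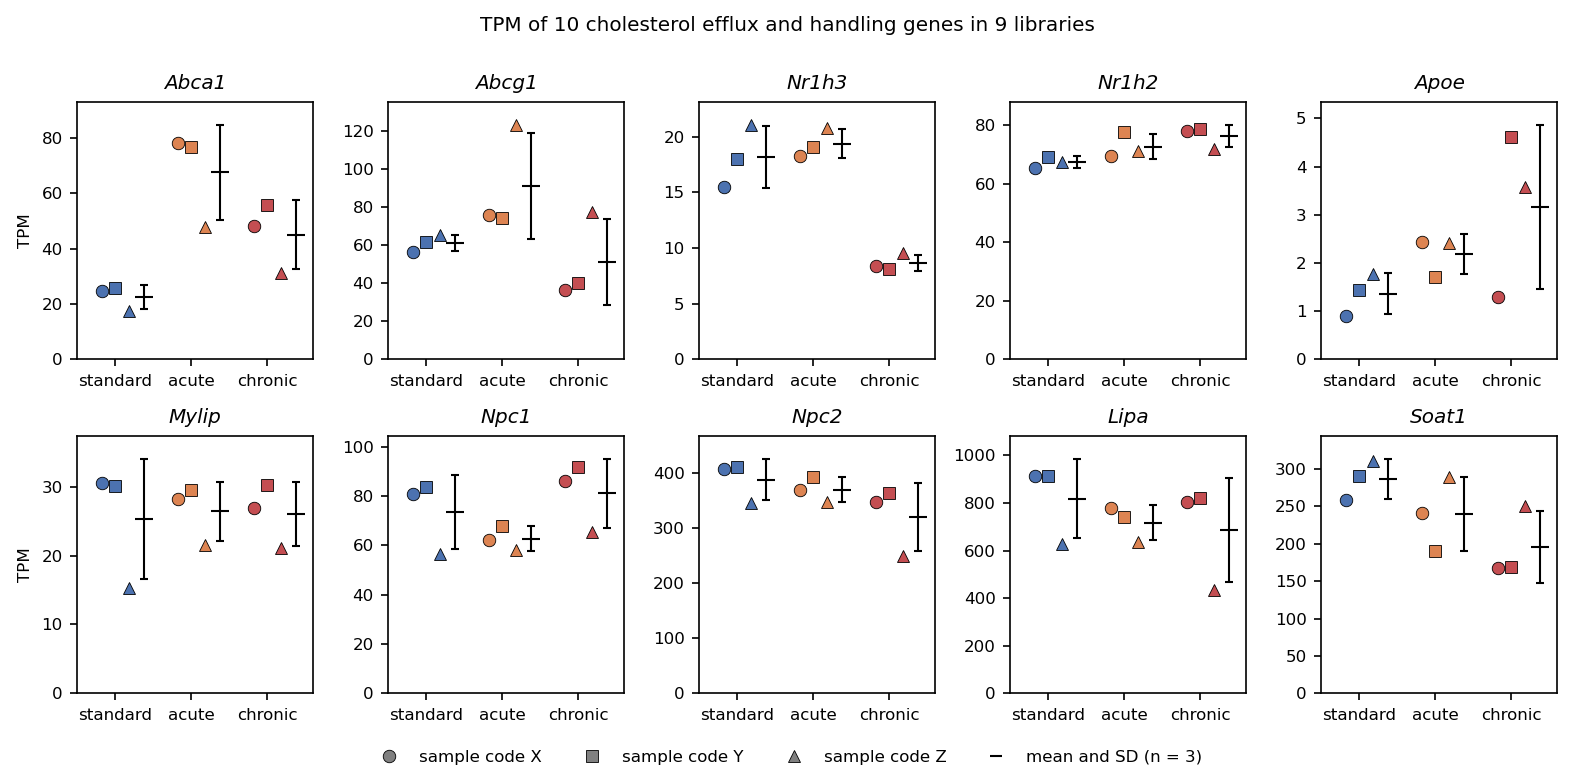
TPM (vertical axis, from 0) of the 10 genes in standard oxygen, acute hypoxia and chronic hypoxia; each symbol is 1 library, its shape gives the sample code, and the bar is the mean with the SD (n = 3). Abca1 lies between 47.8 and 78.3 TPM in acute hypoxia against 17.4 to 25.6 in standard oxygen, and Nr1h3 between 8.14 and 9.50 TPM in chronic hypoxia against 15.4 to 21.1.

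The order of the levels ran over more than 2 orders of magnitude. Over the 9 libraries the mean was 741 TPM for Lipa, 359 for Npc2 and 241 for Soat1, the 3 highest of the set. A middle tier held Npc1 (72.5 TPM), Nr1h2 (72.2), Abcg1 (67.9) and Abca1 (45.0), whose ranges over the libraries overlapped. Mylip had a mean of 25.9 and Nr1h3 of 15.4 TPM, whose ranges also overlapped. The order differed between groups: Abca1 was at 22.5 TPM in standard oxygen, where Mylip was at 25.3 TPM, and above Mylip in both hypoxia groups. Apoe was last at 2.24 TPM, rank 10145 of the 34866 genes by mean level. None of the 10 genes shared more than 0.181% of its 75-base stretches with another listed gene. Exons of Npc1 overlapped those of Rmc1 on the opposite strand, and strandedness is not given, so reads there cannot be assigned with certainty.

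After 3 hours at 1% oxygen, Abca1 was about 3 times as high as in standard oxygen, while the lysosomal genes, Soat1, Mylip and both LXR genes had smaller differences that passed no test. In the unblocked limma fit, 0 of the 10 genes had a Benjamini-Hochberg adjusted p under 0.05, and 0.0273% of the 10987 genes tested did. Tested were genes with a mean of at least 1 TPM in the 6 libraries, which held for all 10 in each comparison. Unadjusted, 2 were under 0.05, Abca1 and Abcg1, beside 785 of the 10987 genes. Blocking by title number again gave 0 of the 10 and 0% of all genes. Blocking by sample code gave 1, Abca1, higher in acute hypoxia, beside 0.71% of all genes in either direction and 0.655% higher. Leaving out code Z also gave 1, Abca1, beside 2.95% of all genes. The groups did not overlap for 3 of the 10 (Abca1, Abcg1 and Nr1h2, each higher in acute hypoxia), beside 12.5% of genes in either direction and 7.63% higher. The median log2 fold change was 0.10 for the 10 and 0.01 for the genes tested.

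Abca1 (ENSMUSG00000015243, chr4:53030787-53159895) encodes the exporter that loads apolipoprotein A-I. In standard oxygen it was 24.5, 25.6 and 17.4 TPM in codes X, Y and Z. In acute hypoxia it was 78.3, 76.6 and 47.8 TPM in the same order. The lowest acute library thus lay above the highest standard oxygen library, and within each pair of a code the level was 2.74 to 3.19 times as high. The means were 22.5 ± 4.43 and 67.6 ± 17.2 TPM (SD, n = 3). On the log2(TPM + 1) scale, which holds for every fold change that follows, the difference was 1.53 ± 0.235 (SE), with a limma adjusted p of 0.125 unblocked. Blocking by title number gave 0.551 and blocking by sample code 0.00871 (SE 0.0785). Codes X and Y alone gave a log2 fold change of 1.59 and a limma adjusted p of 0.00387. In a bulk sample, more Abca1 RNA per cell and more cells that express it cannot be told apart.

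Abcg1 (ENSMUSG00000024030, chr17:31057675-31117988) encodes the half-transporter that supplies high-density lipoprotein. It was 56.5, 61.8 and 65.3 TPM in standard oxygen and 75.8, 74.2 and 123 TPM in acute hypoxia, in codes X, Y and Z. The groups did not overlap, but the code Z library carried much of the difference in the means, with a ratio of 1.89 against 1.34 and 1.20 in the other pairs. In limma this was a log2 fold change of 0.53 ± 0.205 (SE), at an adjusted p of 0.657 unblocked and 0.22 blocked by sample code, and of 0.34 in codes X and Y alone. Abcg1 exceeded Abca1 by 2.31 to 3.75 times in TPM in standard oxygen. In acute hypoxia the ratio was 0.969 in codes X and Y and 2.58 in code Z, lower than in standard oxygen in each of the 3 codes.

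Among the receptors, Nr1h2 (ENSMUSG00000060601, chr7:44549616-44553951) was 65.4, 69.3 and 67.5 TPM in standard oxygen and 69.3, 77.6 and 71.1 TPM in acute hypoxia, in codes X, Y and Z. Its log2 difference of 0.11 had a limma 95% interval of -0.10 to 0.31. Nr1h3 (ENSMUSG00000002108, chr2:91184061-91202834) was 15.4, 18.0 and 21.1 TPM against 18.3, 19.1 and 20.8 TPM. Its interval ran from -0.23 to 0.42, and the groups overlapped. Nr1h2 was 3.21 to 4.24 times as abundant as Nr1h3 in standard oxygen and 3.42 to 4.08 times in acute hypoxia.

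Neither of the other LXR targets of the set passed in any of these fits. Mylip (ENSMUSG00000038175, chr13:45389742-45412022) was 30.6, 30.03 and 15.2 TPM in standard oxygen and 28.2, 29.4 and 21.6 TPM in acute hypoxia, in codes X, Y and Z. It was lower in 2 pairs and higher in the code Z pair, with a limma 95% interval of -0.56 to 0.78 unblocked and -0.24 to 0.47 blocked by sample code. Apoe (ENSMUSG00000002985, chr7:19696109-19699188) was 0.90, 1.43 and 1.76 TPM in standard oxygen and 2.44, 1.71 and 2.41 TPM in acute hypoxia. It was higher in 3 of 3 pairs, with overlapping groups, and limma gave adjusted p-values of 0.828 unblocked and 0.419 blocked by sample code. At 1 to 3 TPM the scale understates its changes.

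For the lysosomal and storage genes, acute hypoxia gave log2 fold changes of -0.17 for Lipa, -0.07 for Npc2, -0.21 for Npc1 and -0.27 for Soat1. Their limma adjusted p-values were between 0.895 and 1 unblocked and between 0.399 and 0.648 blocked by sample code. In codes X and Y, Lipa, Npc1 and Npc2 were lower in acute hypoxia, by ratios of 0.771 to 0.955. In code Z the ratios were 1.01 for Lipa, 1.03 for Npc1 and 1.01 for Npc2. Soat1 alone of these 4 was lower in 3 of 3 pairs, at 0.933, 0.652 and 0.930 times in codes X, Y and Z.

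**Figure D2:**
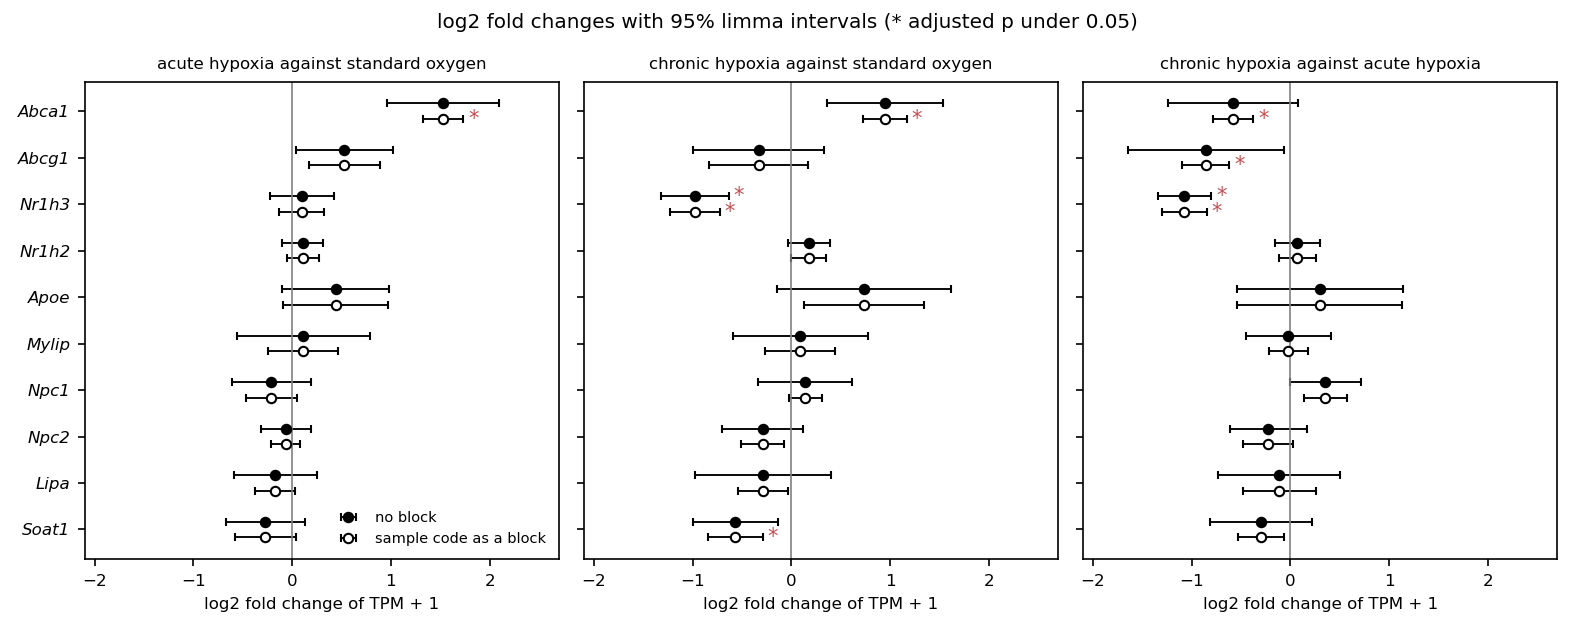
log2 fold changes of TPM + 1 (horizontal axis) for the 10 genes in the 3 comparisons; points are limma estimates without a block (filled) and with the sample code as a block (open), bars are 95% intervals, and an asterisk marks an adjusted p under 0.05. Unblocked, Nr1h3 carries the asterisk in both chronic comparisons, at -0.98 and -1.08, and blocked by sample code Abca1 carries it in each of the 3 comparisons.

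After 7 days at 1% oxygen, Nr1h3, the LXR-alpha gene, fell to 0.477 times its standard oxygen mean. Abca1 was about 2 times as high and Soat1 0.683 times as high, and these passed when blocked by sample code or in codes X and Y alone, but not unblocked. In the unblocked limma fit 1 of the 10 genes passed, Nr1h3, lower, beside 2.69% of 11067 genes in either direction and 0.596% lower. Unadjusted, 3 were under 0.05 (Abca1, Nr1h3 and Soat1), beside 2533 of the 11067 genes. Blocking by title number gave 0 of the 10, beside 0.00904% of all genes. In that fit 4 of the 10 were under 0.05 unadjusted, beside 1936 of the 11067 genes. Blocking by sample code gave 3, 1 higher and 2 lower, beside 18.4% of all genes, 15.1% higher and 3.3% lower. Codes X and Y alone gave 4, 1 higher and 3 lower, beside 21.1% of all genes. The groups did not overlap for 4 of the 10, 2 higher (Abca1 and Nr1h2) and 2 lower (Nr1h3 and Soat1), beside 29.6% of genes, 24.2% higher and 5.39% lower. The median log2 fold change was -0.10 for the 10 and 0.16 for the genes tested. Median-of-ratios rescaling, which evens out the libraries by the median ratio of their genes to a common reference, brought the second to 0.001 and the median of the 10 to -0.27.

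Nr1h3 was 15.4, 18.0 and 21.1 TPM in standard oxygen and 8.39, 8.14 and 9.50 TPM in chronic hypoxia, in codes X, Y and Z. The chronic libraries lay below the 3 standard oxygen libraries, by ratios of 0.451 to 0.543 within pairs. The means were 18.2 ± 2.80 and 8.68 ± 0.727 TPM (SD, n = 3). The fall was -0.98 ± 0.144 on the log2 scale (SE), and limma gave adjusted p-values of 0.0307 unblocked, 0.161 blocked by title number and 0.0113 blocked by sample code. After rescaling it was -1.14 (limma adjusted p 0.0108), and in codes X and Y alone -0.93 (0.00936). Leaving out chronic replicate 1 or 2, or standard replicate 1 or 3, gave limma adjusted p-values of 0.119, 0.155, 0.101 and 0.15, at log2 fold changes between -1.08 and -0.94.

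Nr1h2 passed neither unblocked nor blocked by title number or sample code, and in codes X and Y alone it passed only when these were also blocked (0.22, limma adjusted p 0.0388). It was 78.2, 78.8 and 71.99 TPM in chronic hypoxia, each above the 3 standard oxygen libraries. Its log2 difference was 0.18 ± 0.0893 (SE, limma adjusted p 0.298) as deposited and -0.001 after rescaling, so its direction depends on the scaling. In TPM, Nr1h2 exceeded Nr1h3 by 9.32, 9.68 and 7.57 times in codes X, Y and Z of chronic hypoxia. These ratios did not overlap those of standard oxygen (3.21 to 4.24) or acute hypoxia (3.42 to 4.08), and a ratio within a library does not change with rescaling.

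Abca1 was 48.0, 55.6 and 31.2 TPM in chronic hypoxia, 1.79 to 2.17 times the standard oxygen library of the same code. The mean was 45.0 ± 12.5 TPM (SD, n = 3) against 22.5 in standard oxygen, and the groups did not overlap. On the log2 scale the difference was 0.95 ± 0.246 (SE), and limma gave adjusted p-values of 0.097 unblocked, 0.241 blocked by title number and 0.00921 blocked by sample code. Blocked by sample code and rescaled, it was 0.77 (limma adjusted p 0.0147), and in codes X and Y alone 1.02 (0.00533). Leaving out only chronic replicate 3, the code Z library, brought the unblocked limma adjusted p to 0.0374. Abcg1 was 36.4, 40.3 and 77.3 TPM, below its standard oxygen partner in codes X and Y (0.644 and 0.652 times) and above it in code Z (1.18 times). The estimate for Abcg1 was -0.33 ± 0.277 on the log2 scale (SE), at limma adjusted p-values of 0.521 unblocked and 0.274 blocked by sample code. In codes X and Y alone it was -0.61 (limma adjusted p 0.0151), and without chronic replicate 3 only it was -0.66 (0.0402). Abcg1 was 0.724 to 2.48 times as abundant as Abca1 in chronic hypoxia.

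Soat1 (ENSMUSG00000026600, chr1:156424525-156474331), the gene of the enzyme that esterifies cholesterol for storage, was 258, 291 and 311 TPM in standard oxygen. In chronic hypoxia it was 167, 169 and 251 TPM, and the groups did not overlap. The means were 287 ± 26.4 and 196 ± 47.6 TPM (SD, n = 3). The estimate was -0.57 ± 0.18 on the log2 scale (SE), at limma adjusted p-values of 0.133 unblocked, 0.236 blocked by title number and 0.0298 blocked by sample code. In codes X and Y alone it was -0.70 (limma adjusted p 0.00792), and without chronic replicate 3 only -0.76 (0.03).

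The lysosomal genes showed smaller differences. Lipa (ENSMUSG00000024781, chr19:34492318-34527474) was 915, 912 and 627 TPM in standard oxygen and 803, 822 and 436 TPM in chronic hypoxia, in codes X, Y and Z. Npc2 (ENSMUSG00000021242, chr12:84754562-84773152) was 407, 410 and 344 TPM against 348, 362 and 249 TPM. Both were lower in 3 of 3 pairs with overlapping groups, both at a log2 fold change of -0.29. In limma the adjusted p was 0.588 and 0.355 unblocked and 0.104 and 0.0705 blocked by sample code. Both passed in codes X and Y alone when these were also blocked, at -0.17 and -0.20 (limma adjusted p 0.0174 and 0.0149), a fit that called 35% of all genes. Blocked by sample code and rescaled, the log2 fold changes were -0.46 and -0.47, with limma adjusted p-values of 0.0468 and 0.0315. Npc1 (ENSMUSG00000024413), the membrane partner of Npc2, was 81.0, 83.8 and 56.5 TPM in standard oxygen and 86.2, 91.7 and 65.3 TPM in chronic hypoxia. It was higher in 3 of 3 pairs by 1.06 to 1.16 times, but its log2 fold change of 0.14 became -0.04 after rescaling.

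Mylip was 26.9, 30.2 and 21.05 TPM in chronic hypoxia, within the range of standard oxygen. Its log2 fold change was 0.09 as deposited (limma 95% interval -0.59 to 0.77) and -0.08 after rescaling. Apoe was 1.30, 4.62 and 3.57 TPM, higher than its partner in 3 of 3 pairs but with a spread of 1.70 TPM (SD, n = 3). The difference of 0.74 ± 0.369 on the log2 scale (SE) was at limma adjusted p-values of 0.29 unblocked and 0.088 blocked by sample code. Of the other marker lists, that of osteoclasts (Acp5, Ctsk, Ocstamp and Mmp9) summed to 2236 to 2828 TPM in chronic hypoxia against 994 to 1962 in standard oxygen and 879 to 1738 in acute hypoxia. Mmp9, which macrophages also express, made up most of each sum, and Acp5 stayed at or below 1.92 TPM. Ctsk was 11.9, 11.7 and 33.9 TPM in standard oxygen, in codes X, Y and Z. It was 10.7, 10.8 and 51.0 TPM in acute hypoxia and 8.96, 7.57 and 45.1 TPM in chronic hypoxia. The part of these genes in the chronic results was not tested.

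In chronic hypoxia, 7 days against 3 hours, Nr1h3 was at 0.448 times its acute mean, and both exporters were lower than in acute hypoxia in each pair. These groups differ both in the length of exposure and in the oxygen of the culture, and the design cannot tell these apart. In the unblocked limma fit 1 of the 10 passed, Nr1h3, lower, beside 0.695% of 11087 genes in either direction and 0.144% lower. Unadjusted, 2 were under 0.05 (Abcg1 and Nr1h3), beside 2305 of the 11087 genes. The title number and the sample code give the same pairs here, and blocked by them 3 passed, all lower (Abca1, Abcg1 and Nr1h3), beside 15.5% of all genes in either direction and 3.42% lower. Codes X and Y alone gave 4, these 3 lower and Npc1 higher, beside 16.3% of all genes. The groups did not overlap for 1 of the 10, Nr1h3, lower, beside 27.8% of genes in either direction and 5.5% lower. The median log2 fold change was -0.17 for the 10 and 0.14 for the genes tested, and rescaling brought these to -0.33 and 0.001.

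Nr1h3 fell by 1.08 ± 0.113 on the log2 scale (SE), at limma adjusted p-values of 0.0289 unblocked, 0.00898 blocked and 0.00571 in codes X and Y alone. The 3 ratios within pairs lay between 0.427 and 0.459. Leaving out chronic replicate 1 or 2, or acute replicate 1 or 2, gave limma adjusted p-values of 0.163, 0.199, 0.17 and 0.189. Abcg1 was 0.480, 0.543 and 0.627 times its acute level in codes X, Y and Z, and the groups overlapped. This was -0.86 ± 0.329 on the log2 scale (SE), at limma adjusted p-values of 0.215 unblocked, 0.0122 blocked and 0.00572 in codes X and Y alone. Abca1 was 0.614, 0.726 and 0.654 times its acute level in the same order. For Abca1 the estimate was -0.58 ± 0.273 on the log2 scale (SE), at limma adjusted p-values of 0.283 unblocked, 0.0161 blocked and 0.0218 in codes X and Y alone. Its chronic level lay between its acute and its standard oxygen level in each code.

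Npc1 was 1.13 to 1.38 times its acute level in 3 of 3 pairs, a log2 difference of 0.35 at limma adjusted p-values of 0.247 unblocked and 0.0523 blocked. In codes X and Y alone it was 0.44 (limma adjusted p 0.0284). Npc2 was 0.718 to 0.942 times its acute level in 3 of 3 pairs, at -0.23 and limma adjusted p-values of 0.474 and 0.173. The ratio of Npc2 to Npc1 was 3.81 to 4.03 in chronic hypoxia, below the 5.77 to 5.97 of acute hypoxia and the 4.90 to 6.10 of standard oxygen. Soat1 was lower in 3 of 3 pairs, at -0.30, with limma adjusted p-values of 0.479 and 0.0883. Lipa (-0.11), Mylip (-0.02), Nr1h2 (0.07) and Apoe (0.30) passed in neither fit. Lipa was 1.03 and 1.11 times its acute level in codes X and Y and 0.688 times in code Z.

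The other genes of the LXR pathway were examined as a list of 19 (RXR partners, corepressors and other targets). In each comparison 17 passed the filter, but not the same 17. With all codes fitted, Scd1 passed it only in acute hypoxia against standard oxygen and Apoc1 only in the chronic comparisons. In acute hypoxia 0 passed in limma unblocked, and 2 passed blocked by sample code, both higher, as did 2 in codes X and Y alone. All genes were called at 0.0273% unblocked, 0.655% higher when blocked and 2.95% in codes X and Y. Scd2, a fatty acid desaturase, was 36.7, 37.6 and 48.5 TPM in standard oxygen and 124, 122 and 207 TPM in acute hypoxia, in codes X, Y and Z. For Scd2 the log2 difference was 1.83, at limma adjusted p-values of 0.0709 unblocked, 0.431 blocked by title number and 0.00927 blocked by sample code, and 0.0352 unblocked after rescaling. Arl4c, a small GTPase of the LXR response that bears on cholesterol transport, was 15.7, 17.6 and 13.9 TPM against 49.0, 50.8 and 28.6 TPM. For Arl4c it was 1.35, at limma adjusted p-values of 0.158 unblocked, 0.622 blocked by title number and 0.0384 blocked by sample code. The median of the 17 was 0.005, against 0.011 for the genes tested.

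In chronic hypoxia against standard oxygen, 3 of the 17 passed unblocked in limma, all higher (2.1% of all genes were called higher), with a list median of 0.22 beside 0.16 for the genes tested (0.045 beside 0.001 after rescaling, when 1 passed). Apoc2, an apolipoprotein gene in the cluster of Apoe, rose from 156 ± 42.0 to 679 ± 114 TPM (SD, n = 3). This was 2.13 on the log2 scale, at limma adjusted p-values of 0.011 unblocked, 0.0882 blocked by title number and 0.00838 blocked by sample code. Arl4c (0.95) and Srebf1 (0.53), the gene of a lipogenic transcription factor, were at 0.0362 and 0.0391 in the unblocked limma fit. Blocked by title number they were at 0.178 and 0.181, and rescaled but unblocked at 0.0906 and 0.104. Blocked by sample code 7 were higher and 3 lower, beside 15.1% and 3.3% of all genes, and in codes X and Y alone 7 and 2, where 21.1% of all genes were called. Blocked, these had Apoc2 the highest and Cd5l, a secreted macrophage protein gene, the lowest. Cd5l was -1.45, at limma adjusted p-values of 0.0778 unblocked and 0.0364 blocked by sample code. From 2.48 TPM in standard oxygen it was at 0.226 TPM in chronic hypoxia. Cd5l thus passed the filter only through standard oxygen. Apoc1, among the 7 higher, passed it only through chronic hypoxia (0.621 TPM in standard oxygen, 2.36 TPM in chronic hypoxia). The filter favoured these directions, so the calls of Cd5l and Apoc1 are not read as results about the list. Between chronic and acute hypoxia 1 passed unblocked, Apoc2 (2.08, limma adjusted p 0.0221). Blocked, 3 higher and 2 lower passed, with Cd5l again the lowest (-1.35, limma adjusted p 0.0403). There Cd5l passed the filter only through its acute level of 2.24 TPM. Codes X and Y alone gave 3 higher and 3 lower of the 16 then tested, beside 16.3% of all genes called. All genes were called at 0.695% unblocked, and at 12.1% higher and 3.42% lower blocked.

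The list for sterol uptake, storage and transport held 25 genes, of which 19 passed the filter. In acute hypoxia 0 passed in limma, unblocked or with either block, and 1 was higher and 1 lower in codes X and Y alone. The shares of all genes called were 0.0273% unblocked, 0% blocked by title number, 0.71% blocked by sample code and 2.95% in codes X and Y. In chronic hypoxia against standard oxygen 2 passed unblocked, beside 2.69% of all genes. Lrp1, an endocytic receptor for apolipoprotein E, rose from 262 ± 40.2 to 455 ± 41.7 TPM (SD, n = 3), or 0.80 on the log2 scale (limma adjusted p 0.0444). Scarb1, a receptor that exchanges cholesterol with high-density lipoprotein, fell from 33.4 ± 0.634 to 21.3 ± 2.53 TPM (SD, n = 3), or -0.63 on the log2 scale (limma adjusted p 0.046). Blocked by title number the limma adjusted p-values were 0.136 and 0.18, and blocked by sample code 0.0276 and 0.0188. After rescaling, Lrp1 was 0.62, at 0.093 unblocked and 0.0571 blocked by sample code. Blocked by sample code 3 were higher and 3 lower, and in codes X and Y alone 9 and 2 of the 20 then tested. Of all genes 15.1% were higher and 3.3% lower in the blocked fit. The 3 higher of 19 were thus near the share of all genes, and the 3 lower were above it. The difference of the 3 lower from their share was not tested. In codes X and Y 21.1% of 10924 genes were called, 1855 higher and 445 lower. The gene tested only there, Ch25h, was 0.0539 and 0.120 TPM in standard oxygen and 2.20 and 2.11 TPM in chronic hypoxia. It passed the filter only through its chronic level, so the 9 higher of 20 are not read against that share. Between chronic and acute hypoxia 0 passed unblocked, beside 0.695% of all genes. Blocked, 1 was higher, Lrp1 (0.37, limma adjusted p 0.0284), and 2 were lower, with Scarb1 (-0.60, limma adjusted p 0.0189) the lowest. In that fit 12.1% of all genes were higher and 3.42% lower. Codes X and Y alone gave 6 higher and 2 lower of 20, beside 16.3% of all genes called. Ch25h was again among these 20 only through its chronic level.

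The list of the SREBP2 pathway and cholesterol synthesis had 20 genes, which were all tested. Unblocked, 0 passed in limma in each of the 3 comparisons. Of all genes 0.0273% were called in acute against standard, 2.69% in chronic against standard and 0.695% in chronic against acute. Blocked by sample code, 0 passed in acute hypoxia, beside 0.71% of all genes. In each chronic comparison 2 of 20 were higher in that fit, no more than the 15.1% and 12.1% of all genes that were higher there. Codes X and Y alone gave 1, 2 and 1, all higher, beside 2.95%, 21.1% and 16.3% of all genes called. In both blocked chronic fits, Mbtps1, the protease gene that starts the release of SREBP proteins, was the highest. It was 0.63 against standard oxygen (limma adjusted p 0.0131) and 0.62 against acute hypoxia (0.0243), and after rescaling the blocked limma adjusted p-values were 0.0271 and 0.0533. The list medians were -0.04, 0.12 and 0.14 in acute against standard, chronic against standard and chronic against acute, beside 0.01, 0.16 and 0.14 for the genes tested. After rescaling the list medians were -0.06, -0.05 and -0.001, so the sign of the chronic medians depends on the scaling.

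Patterns over the 9 libraries were compared with Pearson's r of log2(TPM + 1) among 8861 genes with a mean of at least 5 TPM, as a description only, since the libraries share groups and sample codes. The 5 genes most like Abca1 were Arl4c (r = 0.98), Cytip (0.953), Otud6b (0.942), Bzw1 (0.94) and Dnmt3l (0.939). Arl4c had means of 15.7, 42.8 and 31.5 TPM in standard oxygen, acute and chronic hypoxia, beside 22.5, 67.6 and 45.0 TPM for Abca1. The 5 most like Abcg1 were Fosl1 (0.97), Zc3h12a (0.968), Net1 (0.958), Micall1 (0.955) and Hsd3b7 (0.948). Fosl1 had means of 8.43, 26.2 and 5.18 TPM, and those of Abcg1 were 61.2, 91.2 and 51.3 TPM. No gene was on both lists.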

How the data were processed

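RNA sequencing of 9 cultured mouse macrophage samples was used. The authors deposited 3 tables of TPM per Ensembl gene with 6 sample columns each. Per the submitters' processing notes, the build was GRCm38 and FastQC, STAR and featureCounts were used; versions, annotation and the TPM step are not given in the sources used here. Columns summed to 1000000, and a sample had identical values in both tables that held it. TPM keeps no library size, so depth is unknown and no counting error is given; the spread over 3 replicates is the only error. Symbols matched 34582 of 34866 identifiers. Gene positions are from GENCODE M21 (GRCm38).

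On log2(TPM + 1), limma 3.58.1 under R 4.3.3 (eBayes, trend, two-sided) compared each pair of groups from those groups' 6 samples alone. Fits without code Z used only the code X and code Y samples of the groups compared. Genes with a mean of 1 TPM or more entered, p-values were Benjamini-Hochberg adjusted over all of them, and 0.05 was the threshold. The unblocked fit of 6 samples was tested on simulated data with independent noise in each sample. Fits with a block or without code Z were not tested in this way. The members and lists were chosen with earlier results of these data known. Named were the 10 genes, list genes past the threshold unblocked, the highest and lowest list genes past it with the sample code as a block, and 5 genes most like Abca1 or Abcg1. Deviations from group means correlated at 0.378 to 0.633 in each pair of the same sample code, above the 0.1 set for pairing, and at -0.515 to 0.633 for the same title number. The sample code was therefore taken from the descriptions as the pairing, and what it marks is not stated. Code X was not compared with code Y across groups. Since code Z stood apart, these correlations cannot show that X and Y are paired beyond that difference. 1 marker list is not reported here. Alternatives covered pseudocounts, filters, trend, scaling, samples fitted, blocks and left-out libraries.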

Additional observations from a re-analysis of the deposited data

How the results depend on the processing

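The count of the 10 genes past the threshold was 0 in acute hypoxia against standard oxygen, and it was 1 with the sample code as a replicate block, alone, with rescaling or with all 9 samples, and 1 without the code Z libraries, with or without that block. Leaving out 1 replicate gave 0 to 0. In chronic hypoxia against standard oxygen the count of 1 became 0 without the filter, 0 with the title number as a replicate block, 3 with the code block, 5 with that block and rescaling and 4 with it and all 9 samples. Without code Z it was 4, and 7 with the block; leaving out 1 replicate gave 0 to 4. In chronic against acute hypoxia the count of 1 became 0 without the filter, 3 with either block, 4 with the code block and rescaling, 4 with it and all 9 samples, and 4 without code Z, with or without the block; leaving out 1 replicate gave 0 to 1. The share of all genes called moved with these counts. In chronic hypoxia against standard oxygen it was 2.69% unblocked, 11.5% with the code block and rescaling and 26.3% with that block and all 9 samples. Without code Z it was 21.1%, and 35% with the block, and leaving out 1 replicate gave 0.00903% to 4.74%. In chronic against acute hypoxia these shares were 0.695%, 9.82%, 22.1%, 16.3%, 25.1% and 0.00901% to 2.79% in the same order. In acute hypoxia they were 0.0273%, 0.519%, 1.84%, 2.95%, 3.02% and 0% to 0.302%. The higher member counts were not tested against these shares and are not read as a result about the 10 genes. In both comparisons with standard oxygen, the title number pairs the standard code Z library with a code Y library and the standard code Y library with a code Z library. Fewer genes were called there than unblocked. In chronic against acute hypoxia its pairs are those of the code. The cause of the fewer calls was not tested.

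Over all genes the calls went from 3 to 78 with the code block in acute hypoxia, from 298 to 2039 in chronic hypoxia against standard oxygen and from 77 to 1724 in chronic against acute hypoxia; with the title number they were 0, 1 and 1724. The unadjusted p was under 0.05 for 579 genes in the first of these 3 title-number fits. Without the filter they were 4, 120 and 7. The share of higher calls also moved with rescaling, from 232 higher and 66 lower to 111 and 117 in chronic hypoxia against standard oxygen and from 61 and 16 to 29 and 44 in chronic against acute hypoxia.

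Of 597 values of single genes under the alternatives, 517 kept direction and side of the threshold, 42 passed only under the alternative, 11 passed only without it and 27 changed sign, none of which passed the threshold with either sign. Mylip in acute hypoxia was -0.071 without code Z, with or without the block, and -0.204 to 0.275 over the left-out replicates, below 0 without standard replicate 2. Nr1h3 was -0.009 to 0.202 over them, below 0 without standard replicate 1. In chronic hypoxia against standard oxygen, rescaling gave -0.001 for Nr1h2, -0.082 for Mylip and -0.035 for Npc1, with or without the code block, and quantile normalization gave -0.072 for Mylip and -0.01 for Npc1. Without code Z Mylip was -0.084, with or without the block; over the left-out replicates it was -0.224 to 0.255, Npc1 was -0.037 to 0.287 and Lipa was -0.467 to 0.013, above 0 without chronic replicate 3. In chronic against acute hypoxia Nr1h2 was -0.084 with rescaling, with or without the block, and -0.042 with quantile normalization. Lipa was 0.098 without code Z, with or without the block, and -0.272 to 0.184 over the left-out replicates, and Mylip was -0.153 to 0.12 over them. The causes were not tested. With 1 replicate left out, the group of 2 shares the spread of the group of 3.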
